A study of Mus musculus with 9 samples.

Results

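The Hox, Fox, Sox, T-box and Meox families are DNA-binding transcription factors that pattern the mesoderm from which lung smooth muscle arises. Their members were taken by symbol: protein-coding genes named Hox, Fox, Tbx, Sox or Meox with the letters and numbers of these families. The rule found 83 of the 21049 genes measured: 20 Hox, 35 Fox, 10 Tbx, 16 Sox and 2 Meox genes. No measured level entered that choice. Hox proteins carry a homeodomain and record position along the body axis, and their genes lie in clusters whose order follows that of their expression. Forkhead (Fox) proteins bind DNA through a winged helix, T-box proteins through the domain that names them, and Sox proteins through a high mobility group box that bends DNA. In lung mesenchyme, Foxf1 acts downstream of Hedgehog signals, Tbx4 and Tbx5 act in the growth of the lung buds, and Hoxa5 and Hoxb5 act in branching of the airways.

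RNA was sequenced from smooth muscle cells sorted by fluorescence from lungs of tamoxifen-treated mice, in 3 groups of 3 libraries, so that the types could be compared directly. BSMC, labelled as bronchial smooth muscle cells, came from NVSMC-effector mice of genotype Chrm2/Acta2-CreER/R26-GFP. PASMC, labelled as pulmonary arterial smooth muscle cells, came from ASMC-effector mice of genotype Cspg4/Acta2-CreER/R26-GFP. The group called total_SMC here held pulmonary smooth muscle cells of every kind, venous cells included, from tg-Acta2-GFP mice. Reporter activation in BSMC and PASMC thus depended on an Acta2-driven CreER together with a Chrm2 or a Cspg4 driver, and the GFP of total_SMC on the Acta2 transgene alone. The labels gave 0.75 mg tamoxifen per 10 g body weight for 3 days in all groups. Age, sex and the number of animals behind a library are not given in the sources used here. Population, mouse line and sort cannot be told apart in any comparison.

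Levels below are the authors' normalized counts, 1 value per gene and library. Depth, here the reads assigned to the genes measured, was recovered from the spacing of these rounded values. It was 6.39 to 10.02 M reads per library and lowest in BSMC replicate 3. Myh11, the smooth muscle myosin heavy chain, was at 9171 to 12498 over the 9 libraries. Markers of other cell types were present too, with their sums given below. Markers of bronchial muscle went against the labels. Chrm2, the muscarinic receptor named in the BSMC genotype, was at 155, 223 and 115 in BSMC and at 398, 385 and 199 in PASMC. That log2 difference of 0.98 ± 0.31 (SE) had an adjusted p of 0.0433, which rose to at most 0.160 when any of BSMC 1, BSMC 3, PASMC 1, PASMC 2 or a total_SMC library was left out. Chrm2 was also called higher in total_SMC than in BSMC, by 0.92 on the log2 scale. That call was lost without BSMC 1, BSMC 3, total_SMC 2 or total_SMC 3, at an adjusted p of up to 0.115. Hhip, the Hedgehog-binding protein of airway muscle, was at 2913 to 3491 in BSMC and at 7414 to 7798 in PASMC. Lgr6, another airway muscle gene, was at 2088 to 2601 in BSMC and at 4116 to 4848 in PASMC. Cspg4, the proteoglycan named in the PASMC genotype, was at 1296 to 1778 in BSMC, 1658 to 2393 in PASMC and 331 to 750 in total_SMC. Every direction below is therefore between libraries as labelled. Markers of leukocytes summed to 1671 to 2506 CPM (counts scaled to one common library total) in BSMC, 323 to 346 in PASMC and 729 to 922 in total_SMC. Ptprc, Cd3e, Itgam and Jchain from that list were at 0 in all PASMC libraries. Erythroid markers summed to 35.0 to 85.2 CPM in BSMC, 0.810 to 2.34 in PASMC and 8.82 to 16.8 in total_SMC. Glial markers summed to 23.0 to 34.5, 20.0 to 21.0 and 28.2 to 33.4 CPM in the same order.

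A gene was tested where at least 3 libraries reached a value of 10, and was called changed at an adjusted p under 0.05 over all 15647 genes tested. Of the 83 members, 66 passed that filter, and 39 of them were called in at least 1 comparison. In PASMC against BSMC, 10 of the 66 were higher and 4 lower. These 14 calls are 21.2% of the members tested, beside 22.1% of all genes called in either direction. By direction, 15.2% of the members were higher and 6.06% lower, beside 13.2% and 8.88% of all genes. In total_SMC against PASMC, 6 were higher and 12 lower, or 27.3%, beside 16.2% of all genes. By direction the members called there were 9.09% higher and 18.2% lower, beside 9.39% and 6.83% of all genes. In total_SMC against BSMC, 11 were higher and 19 lower, or 45.5%, beside 41.9% of all genes (23.7% higher and 18.2% lower). The median log2 difference of the members tested was -0.03, -0.29 and -0.19 in the 3 comparisons, beside 0.05, 0.03 and 0.05 over all genes tested. Each group enters 2 of the 3 comparisons, which are therefore not independent of each other. Counts called in the marker and gene lists below stand beside the shares of all genes given here.

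Single libraries moved some of these counts. The 10 members higher in PASMC than in BSMC became 5 without PASMC 1. The 4 lower ones became 0 without BSMC 1 or PASMC 1, 2 without BSMC 3 or total_SMC 2, and 10 without BSMC 2. The 12 lower in total_SMC than in PASMC became 6 without total_SMC 1 and 7 without total_SMC 3 or any one PASMC library. The 11 higher in total_SMC than in BSMC became 7 without total_SMC 2 or total_SMC 3. Below, the text names the libraries without which a call was lost and the highest adjusted p that resulted. A call of a gene named with its adjusted p and no such remark held in each of these fits in which the gene could be tested. The background moved too. Over all genes, the 1389 lower in PASMC than in BSMC became 490 without BSMC 1, 602 without BSMC 3, 712 without PASMC 1, 773 without PASMC 2 and 2667 without BSMC 2, and the 2062 higher became 989 without PASMC 1. Without BSMC 2, 41.7% of all genes were called in either direction. BSMC 2 differed most from the other libraries of its group, with a chi-square of implied reads per gene of 24.1 and 30.2 beside 14.7 between BSMC 1 and BSMC 3.

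**Figure D1:**
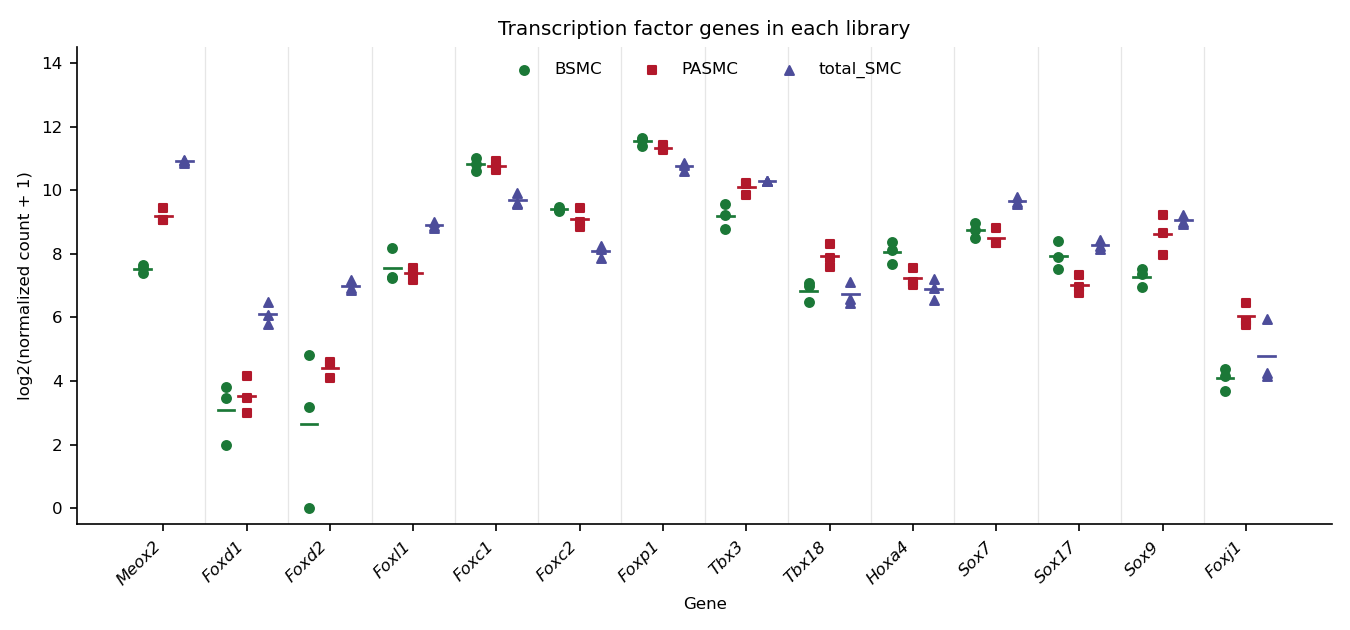
Level of 14 members in each of the 9 libraries, as log2 of the normalized count plus 1, with the group mean as a bar. Meox2 separated all 3 groups, at 169 to 198 in BSMC, 538 to 697 in PASMC and 1833 to 1985 in total_SMC.

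Meox2 had the smallest adjusted p of the 66 members tested in each of the 3 comparisons. It encodes a homeodomain protein of somites and limb muscle that is also known from vascular smooth muscle as a growth arrest factor. Its normalized counts were 186, 198 and 169 in BSMC, 539, 538 and 697 in PASMC, and 1833, 1985 and 1950 in total_SMC. No groups overlapped, and each step was larger than the spread within groups. Meox2 was 3.21 times as high in PASMC as in BSMC (log2 difference 1.67 ± 0.15 SE, adjusted p = 2.14e-05). It was 3.25 times as high in total_SMC as in PASMC (1.71 ± 0.15, adjusted p = 2.54e-05) and 10.4 times as high as in BSMC (3.38 ± 0.15, adjusted p = 8.49e-08). These calls held in all 20 alternatives, with adjusted p at most 9.80e-04. In a bulk sample, fewer cells that make a transcript and less of it per cell cannot be told apart.

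Meox1, the paralogue that acts with Meox2 in the sclerotome, did not follow it. Its values were 85, 45 and 107 in BSMC, 38, 24 and 66 in PASMC, and 46, 53 and 47 in total_SMC. The groups overlapped in each comparison, and the adjusted p values were 0.131 between PASMC and BSMC, 0.730 between total_SMC and PASMC, and 0.259 between total_SMC and BSMC. Meox2 made up 61.2 to 81.5% of the summed Meox level in BSMC, 91.3 to 95.7% in PASMC and 97.4 to 97.6% in total_SMC.

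Sequence upstream of the start site is shown for 4 members whose levels differed between groups and that had an entry in the RefSeq promoter table, chosen after their values were seen. That table is on build GRCm38.p6, while the gene coordinates of the count table are on mm39. Each run below is the 250 bases before the annotated start, 5′ to 3′ on the gene's strand, with searched motifs in capitals. Meox2 lies at chr12:37108290-37108539, plus strand, and Foxd1 at chr13:98353995-98354244, plus strand. Foxd2 lies at chr4:114908899-114909148, minus strand, and Foxc1 at chr13:31806396-31806645, plus strand.
Meox2: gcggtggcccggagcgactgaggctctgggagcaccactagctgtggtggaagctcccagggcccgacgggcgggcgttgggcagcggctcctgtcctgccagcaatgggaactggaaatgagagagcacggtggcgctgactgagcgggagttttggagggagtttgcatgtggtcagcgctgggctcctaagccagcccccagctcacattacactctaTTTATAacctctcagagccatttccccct
Foxd1: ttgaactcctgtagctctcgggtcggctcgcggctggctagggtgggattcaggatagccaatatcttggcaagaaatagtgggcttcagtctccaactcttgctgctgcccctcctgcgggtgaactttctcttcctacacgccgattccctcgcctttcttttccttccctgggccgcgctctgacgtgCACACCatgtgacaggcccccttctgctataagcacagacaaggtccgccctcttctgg
Foxd2: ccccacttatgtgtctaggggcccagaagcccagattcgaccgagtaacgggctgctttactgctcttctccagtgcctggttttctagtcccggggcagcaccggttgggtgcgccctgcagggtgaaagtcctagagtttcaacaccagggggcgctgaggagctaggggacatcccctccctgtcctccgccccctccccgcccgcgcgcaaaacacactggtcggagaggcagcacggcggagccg
Foxc1: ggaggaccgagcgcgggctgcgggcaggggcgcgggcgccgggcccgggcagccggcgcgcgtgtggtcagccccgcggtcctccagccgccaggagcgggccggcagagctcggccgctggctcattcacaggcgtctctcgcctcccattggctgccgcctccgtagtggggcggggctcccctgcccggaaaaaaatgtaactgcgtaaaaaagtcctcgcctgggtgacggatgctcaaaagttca
The capitals in Meox2 mark a TATA box (TATAAA, here on the reverse strand) that begins 29 bases before the start. Those in Foxd1 mark a T-box core (GGTGTG, here on the reverse strand) at 59 bases before the start. The other searched motifs were not found in these 4 windows. The Foxc1 window is rich in CpG, with 29 of these dinucleotides and 70.8% G and C, against 12 and 62.0% for Meox2.

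Forkhead genes differed in both directions, with Foxd1 and Foxl1 higher and Foxc1, Foxc2 and Foxp1 lower in total_SMC. Of the 27 members tested, 4 were higher and 1 lower in PASMC than in BSMC, or 18.5% called beside 22.1% of all genes. In total_SMC, 3 were higher and 8 lower than in PASMC, which is 40.7% called beside 16.2% of all genes. Against BSMC, 6 were higher and 9 lower in total_SMC, or 55.6% beside 41.9% of all genes. By direction, 11.1% of the Fox members were higher and 29.6% lower in total_SMC than in PASMC, beside 9.39% and 6.83% of all genes. In total_SMC against BSMC, 22.2% were higher and 33.3% lower, beside 23.7% and 18.2% of all genes. Summed over its 35 members, the family stood at 1926 to 2109 CPM in BSMC, 1711 to 1908 in PASMC and 1389 to 1515 in total_SMC. Foxc1, Foxf1, Foxn3, Foxo1 and Foxp1 made up 56.8 to 65.6% of that sum, which counts reads and is not corrected for transcript length.

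Foxd1, Foxd2, Foxl1 and Foxn1 were high in total_SMC. Foxd1, which marks stromal progenitors of kidney and lung from which pericytes arise, was at 10, 13 and 3 in BSMC, 10, 17 and 7 in PASMC, and 55, 88 and 67 in total_SMC. All 3 total_SMC libraries lay above the other 6. Foxd1 was 6.18 times as high in total_SMC as in PASMC (log2 difference 2.58 ± 0.55, adjusted p = 0.00688) and 8.08 times as high as in BSMC (3.03 ± 0.55, adjusted p = 0.00123).

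Its paralogue Foxd2 was at 0, 27 and 8 in BSMC, 23, 22 and 16 in PASMC, and 115, 145 and 121 in total_SMC. Here too the total_SMC libraries stood above all others. The rise against BSMC passed the test (4.33 ± 0.90, adjusted p = 0.00303), while the difference from PASMC, 6.25-fold by the means, did not (2.59 ± 0.90, adjusted p = 0.0764). Foxd2os, a non-coding gene beside Foxd2 on the opposite strand, was at 15 to 21 in BSMC, 22 to 45 in PASMC and 146 to 173 in total_SMC. Its total_SMC level exceeded that of PASMC by 2.23 on the log2 scale (adjusted p = 8.41e-04) and that of BSMC by 3.01 (adjusted p = 5.06e-05). The SMART-Seq kit named in the labels does not mark strand, so reads from overlapping genes on opposite strands cannot be told apart. Foxd2 and Foxd2os lie side by side in the count table's coordinates and do not overlap.

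Foxl1, a factor of gut and lung mesenchyme, was at 152, 151 and 290 in BSMC, 145, 173 and 185 in PASMC, and 508, 465 and 451 in total_SMC. It was 2.83 times as high in total_SMC as in PASMC (1.50 ± 0.25, adjusted p = 0.00148) and 2.40 times as high as in BSMC (1.33 ± 0.25, adjusted p = 0.00154). Foxn1, known as the factor of thymic epithelium, was at 0, 6 and 0 in BSMC, 0 in every PASMC library, and 18, 48 and 13 in total_SMC. It entered the test only through total_SMC, the group where it is high, and a gene that enters so has to differ. Its calls against PASMC and BSMC are therefore given without a p, and the counts above of all members and of Fox genes include them. No fold is given because PASMC was at 0. Without any one total_SMC library Foxn1 no longer passed the filter.

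Markers of fibroblasts and mesothelium were also high in total_SMC. The 12 fibroblast markers summed to 4002 to 5004 CPM in BSMC, 4871 to 5486 in PASMC and 6814 to 7550 in total_SMC. Of these 12, 7 were higher in PASMC than in BSMC, 5 higher in total_SMC than in PASMC and 7 higher in total_SMC than in BSMC, with 0 lower in each, also at an unadjusted p under 0.05 in limma. The 8 mesothelial markers summed to 98.5 to 215 CPM in BSMC, 38.0 to 63.5 in PASMC and 817 to 1010 in total_SMC, and none was at 0 in all libraries. The part of either cell type in the levels of Meox2, Foxd1, Foxd2, Foxl1 and Foxn1 was not tested.

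Other forkhead genes were lowest in total_SMC. Smooth muscle markers were lowest there as well. The 8 markers summed to 3802 to 4624 CPM in BSMC, 3466 to 3843 in PASMC and 2870 to 3281 in total_SMC, and none was at 0 in all libraries. Of these 8, 0 were called between PASMC and BSMC (also 0 at an unadjusted p under 0.05 in limma), 2 were lower in total_SMC than in PASMC and 6 lower in total_SMC than in BSMC, with 0 higher, also at an unadjusted p under 0.05. The part of smooth muscle RNA in the members lower in total_SMC was not tested. Foxc1 and Foxc2 are paralogues that act in mesoderm and in the vessel wall. Foxc1 was at 1810, 2044 and 1557 in BSMC, 1597, 1739 and 1922 in PASMC, and 750, 772 and 964 in total_SMC. It fell by 1.08 on the log2 scale (SE 0.15, adjusted p = 4.09e-04) from PASMC to total_SMC, and PASMC and BSMC overlapped (adjusted p = 0.870). Foxc2 was at 655 to 709 in BSMC, 454 to 699 in PASMC and 231 to 301 in total_SMC. The 3 total_SMC libraries lay below all others for both genes. PASMC was 2.04 times as high as total_SMC in Foxc2 (log2 difference of total_SMC minus PASMC -1.01 ± 0.18, adjusted p = 0.00278). Against BSMC, total_SMC was lower in Foxc1 (-1.12 ± 0.15, adjusted p = 1.33e-04) and Foxc2 (-1.32 ± 0.18, adjusted p = 2.16e-04).

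Foxf2, a partner of Foxf1 in splanchnic mesoderm, was at 682 to 927 in BSMC, 476 to 663 in PASMC and 371 to 380 in total_SMC. Its levels in the 3 groups did not overlap. The fall from BSMC to total_SMC was called (-1.03 ± 0.17, adjusted p = 7.03e-04). The one from PASMC to total_SMC (-0.56 ± 0.17, adjusted p = 0.0431) was lost without PASMC 2, PASMC 3 or any one total_SMC library, at an adjusted p of up to 0.186.

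Foxp1, a forkhead repressor of lung and heart development, was at 2699 to 3189 in BSMC, 2443 to 2759 in PASMC and 1552 to 1843 in total_SMC. The total_SMC libraries lay below all others, by -0.59 ± 0.11 from PASMC (adjusted p = 0.00370) and -0.79 ± 0.11 from BSMC (adjusted p = 2.61e-04). Foxp4, its relative, stood lower in total_SMC than in BSMC (203 to 279 against 384 to 498, -0.87 ± 0.20, adjusted p = 0.00521). Foxk1, known from muscle progenitors, was at 156 to 222 in BSMC, 116 to 151 in PASMC and 63 to 75 in total_SMC. Foxk1 in total_SMC differed from BSMC by -1.48 ± 0.23 (adjusted p = 4.49e-04) and from PASMC by -0.92 ± 0.23 (adjusted p = 0.0173). The latter call was lost without PASMC 3, total_SMC 2 or total_SMC 3, at an adjusted p of up to 0.0770. Its paralogue Foxk2 was at 321 to 474 over all 9 libraries and was called in no comparison.

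Foxn3, a gene of the cell-cycle checkpoint, showed a smaller difference. Its level was 2097 to 2186 in BSMC, 2171 to 2204 in PASMC and 1575 to 1729 in total_SMC, a difference of -0.40 ± 0.10 from PASMC (adjusted p = 0.0149) and of -0.37 ± 0.10 from BSMC (adjusted p = 0.0111). The first was lost without total_SMC 1 or any one PASMC library, at an adjusted p of up to 0.0759. On implied reads without scaling, both were lost, at -0.43 (adjusted p = 0.111) and -0.18 (adjusted p = 0.381). Foxq1 was at 46, 26 and 79 in BSMC, 56, 85 and 108 in PASMC, and 21, 23 and 15 in total_SMC. PASMC was 4.22 times as high as total_SMC (-1.99 ± 0.43, adjusted p = 0.00784). The lower level than in BSMC (-1.20 ± 0.43, adjusted p = 0.0442) was lost in 7 of the 9 fits that left out a library, all but those without BSMC 2 or PASMC 1, at an adjusted p of up to 0.150. Foxn2 was higher in total_SMC than in BSMC (428 to 516 against 284 to 396, 0.54 ± 0.20, adjusted p = 0.0479). That call held in the leave-one-out fits only without BSMC 2 or PASMC 3, and the adjusted p reached 0.148 in the others.

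**Figure D2:**
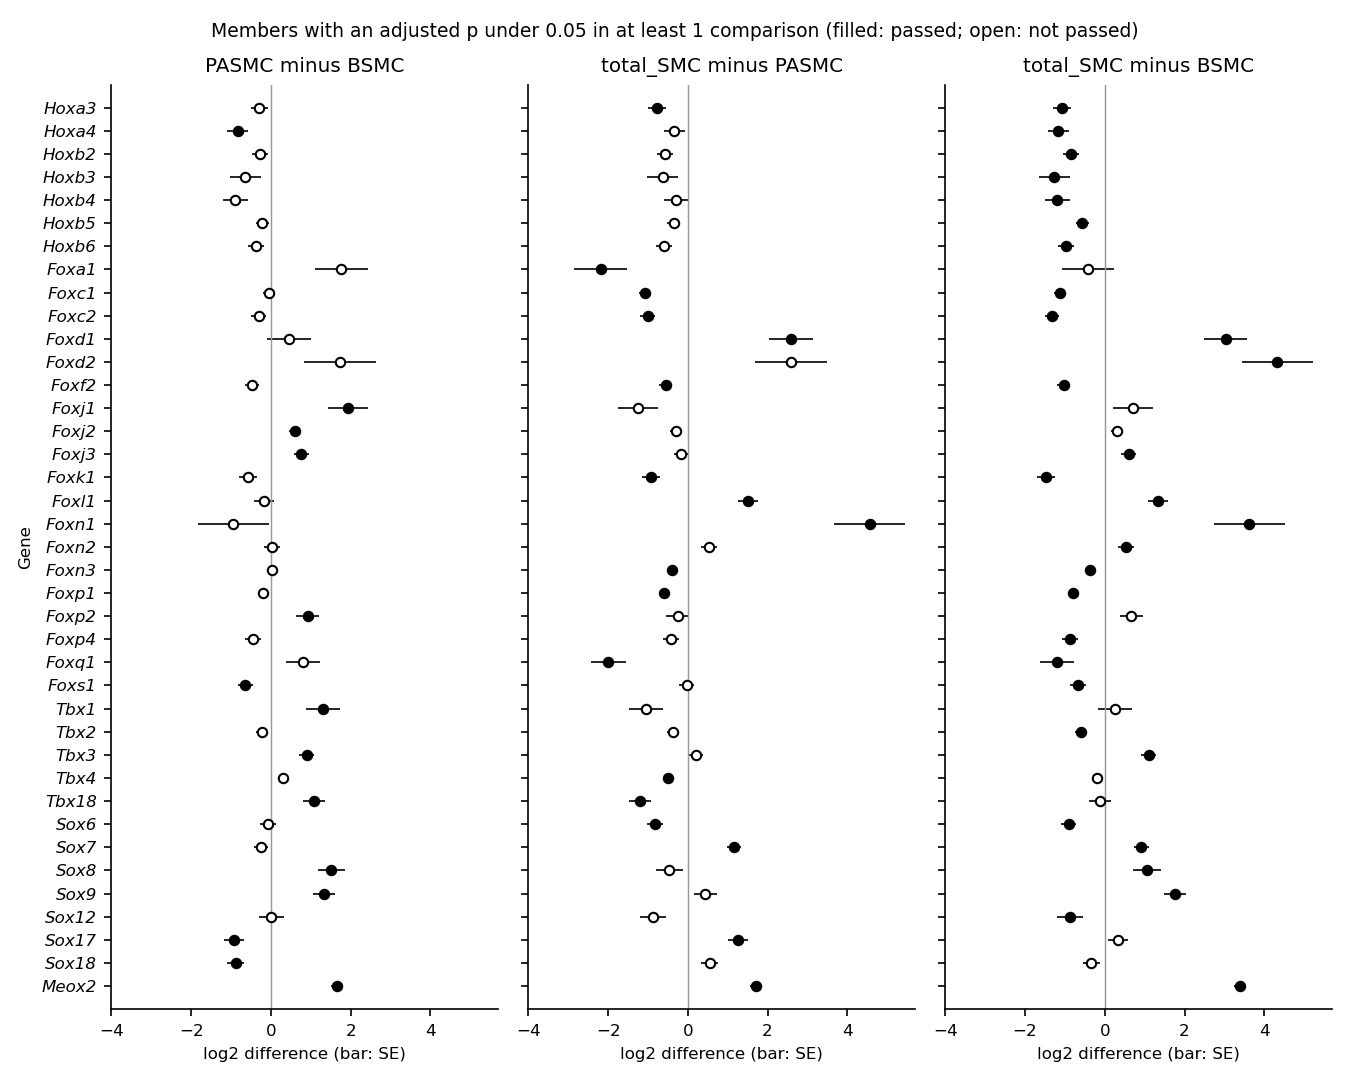
Log2 difference of each member called in at least 1 comparison, with the standard error of the fit as a bar, for the 3 comparisons. Filled points passed an adjusted p of 0.05. All 7 Hox genes shown lie below 0 in total_SMC minus BSMC.

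Between PASMC and BSMC the forkhead genes called were Foxj1, Foxj2, Foxj3, Foxp2 and Foxs1. Foxj1, the master factor of motile cilia, was at 17, 12 and 20 in BSMC, 87, 53 and 58 in PASMC, and 17, 61 and 18 in total_SMC. It was 4.04 times as high in PASMC as in BSMC (1.94 ± 0.50, adjusted p = 0.0176), a call lost without PASMC 1 (adjusted p = 0.0834). In total_SMC a single library, replicate 2, reached the PASMC level.

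The forkhead A factors, which act in endoderm and airway epithelium, were low. Foxa1 was at 10, 12 and 46 in BSMC, 85, 44 and 68 in PASMC, and 5, 25 and 17 in total_SMC. PASMC exceeded total_SMC 4.19-fold (-2.19 ± 0.66, adjusted p = 0.0417), a call lost without total_SMC 1, total_SMC 3 or any one PASMC library, at an adjusted p of up to 0.169. Foxa2 was at 15, 16 and 0 in BSMC, 32, 41 and 39 in PASMC, and 6, 23 and 9 in total_SMC, with no call (adjusted p = 0.0714 for PASMC against BSMC). Sox2, a factor of airway epithelium, was below the filter: it was at 11, 9 and 31 in PASMC, 0 in every BSMC library and 1 to 4 in total_SMC.

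Epithelial markers were measured beside these genes. The 13 markers summed to 621 to 737 CPM in BSMC, 599 to 724 in PASMC and 477 to 639 in total_SMC, and the value of 639 was that of total_SMC 2. Of the 13, 5 were higher and 2 lower in PASMC than in BSMC. The 5 included Scgb3a2, a secretory airway gene (2.61, adjusted p = 1.82e-04), Sftpd, a surfactant gene (1.66, adjusted p = 2.64e-04), and Nkx2-1, the lung epithelial factor (1.60, adjusted p = 0.0431, lost without BSMC 1, total_SMC 3 or any one PASMC library, at up to 0.132). Ager and Hopx of alveolar type 1 cells were the 2 lower ones. The part of epithelial RNA in the levels of Foxj1, Foxa1, Foxa2 and Sox2 was not tested.

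Foxj2 and Foxj3, forkhead activators with broad expression, were higher in PASMC than in BSMC. Foxj2 was at 796, 1134 and 815 in BSMC, 1450, 1276 and 1376 in PASMC, and 1016 to 1176 in total_SMC. The difference of PASMC from BSMC was 0.60 ± 0.15 (adjusted p = 0.0169) and was lost without BSMC 1 or PASMC 1, at an adjusted p of up to 0.0761. Foxj3 was at 292 to 389 in BSMC, 482 to 694 in PASMC and 444 to 626 in total_SMC. It was higher in PASMC than in BSMC (0.76 ± 0.19, adjusted p = 0.0173), which was lost without BSMC 1, PASMC 1 or PASMC 2, at an adjusted p of up to 0.0885. It was also higher in total_SMC than in BSMC (0.60 ± 0.19, adjusted p = 0.0279), which was lost without BSMC 1, BSMC 3, total_SMC 2 or total_SMC 3, at an adjusted p of up to 0.118.

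Foxs1, a forkhead gene known from pericytes, was highest in BSMC, at 904, 760 and 1288 against 532, 627 and 699 in PASMC and 666, 584 and 561 in total_SMC. No BSMC library fell within the range of the others. The difference was -0.64 ± 0.19 for PASMC (adjusted p = 0.0360) and -0.67 ± 0.19 for total_SMC (adjusted p = 0.0167). The first was lost without BSMC 1, BSMC 3, PASMC 1, PASMC 2, total_SMC 2 or total_SMC 3 (adjusted p up to 0.139), and the second without BSMC 3, total_SMC 2 or total_SMC 3 (up to 0.0664). Foxp2, of lung epithelium and brain, was at 159, 349 and 182 in BSMC and 400, 471 and 367 in PASMC. Its higher level in PASMC (0.92 ± 0.29, adjusted p = 0.0419) held among the leave-one-out fits only without BSMC 2 or total_SMC 1, and the adjusted p reached 0.146 in the others.

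Foxf1, the Hedgehog-responsive factor of lung mesenchyme, and Foxo1 were called in no comparison. Foxf1 was at 1883 to 2267 in BSMC, 1700 to 1944 in PASMC and 1901 to 2343 in total_SMC, with log2 differences of -0.24 ± 0.12 for PASMC minus BSMC, 0.26 ± 0.12 for total_SMC minus PASMC and 0.02 ± 0.12 for total_SMC minus BSMC (adjusted p = 0.166, 0.190 and 0.899). Per kilobase of exon its mean of 835 was second among the members to that of Tbx2, at 900. Foxo1, the insulin-regulated factor of the FoxO group, was at 1324 to 1577 over the 9 libraries. Foxo3 was at 139 to 384, Foxo4 at 6 to 51 and Foxo6 at 43 to 154, with no call. Foxm1, which drives cell-cycle genes, was low, at 16 to 41.

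Kinases and other regulators of forkhead proteins came next. Of 11 such genes, 3 were higher in PASMC than in BSMC, 1 was lower in total_SMC than in PASMC and 4 were higher in total_SMC than in BSMC. The shares of all genes called in the same directions were 13.2, 6.83 and 23.7%. Sgk1, a kinase that phosphorylates FoxO proteins, was higher in PASMC than in BSMC (0.75, adjusted p = 0.00277). Stk4, the MST1 kinase, was higher in total_SMC than in BSMC (1.20, adjusted p = 5.17e-04). Known FoxO target genes were measured as well. Of 13, 2 were higher and 1 lower in PASMC than in BSMC, 2 higher and 4 lower in total_SMC than in PASMC, and 1 higher and 6 lower in total_SMC than in BSMC. In either direction, 22.1, 16.2 and 41.9% of all genes were called in these comparisons. Fbxo32, the atrophy-linked ubiquitin ligase atrogin-1, fell from PASMC to total_SMC (-1.14, adjusted p = 3.61e-04), and its total_SMC level was also under that of BSMC (-1.23, adjusted p = 8.98e-05). Irs2, an insulin receptor substrate, was lower as well (-1.18, adjusted p = 0.00147, and -0.82, adjusted p = 0.00617). Ccng2, a cyclin of quiescent cells, was higher in total_SMC than in BSMC (1.07, adjusted p = 2.82e-04).

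T-box genes lie in part as neighbours, Tbx2 beside Tbx4 and Tbx3 beside Tbx5. These 4 held 94.7 to 98.2% of the summed level of the 10 Tbx members, which was 849 to 1136 CPM in BSMC, 879 to 1080 in PASMC and 724 to 746 in total_SMC. Of the 9 Tbx members tested, 3 were higher and 0 lower in PASMC than in BSMC (0 lower at an unadjusted p under 0.05), 0 higher and 2 lower in total_SMC than in PASMC (0 higher at an unadjusted p under 0.05), and 1 higher and 1 lower in total_SMC than in BSMC. The percent of Tbx members called was 33.3, 22.2 and 22.2 in that order, beside 22.1, 16.2 and 41.9 of all genes.

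Tbx3, a T-box repressor of embryonic lung mesenchyme, was at 437, 593 and 759 in BSMC, 924, 1159 and 1197 in PASMC, and 1258, 1241 and 1245 in total_SMC. Every BSMC library lay below all others. The difference from BSMC was 0.90 ± 0.19 in PASMC (adjusted p = 0.00601) and 1.10 ± 0.19 in total_SMC (adjusted p = 8.66e-04). Its paralogue Tbx2, which shares that role, was at 3463, 3373 and 4933 in BSMC, 2926, 3523 and 3439 in PASMC, and 2561, 2389 and 2748 in total_SMC. The lower level of Tbx2 in total_SMC than in BSMC was called (-0.59 ± 0.15, adjusted p = 0.00821), and missed the threshold on implied reads without scaling (-0.41, adjusted p = 0.0508). As a share of the 2 genes together, Tbx3 took 11.2 to 15.0% in BSMC, 24.0 to 25.8% in PASMC and 31.2 to 34.2% in total_SMC, with no overlap between groups.

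Tbx4 was at 2101 to 2560 in BSMC, 2577 to 3423 in PASMC and 1897 to 2232 in total_SMC. PASMC was 1.42 times as high as total_SMC (-0.50 ± 0.13, adjusted p = 0.0216), a call lost without PASMC 1, PASMC 2, total_SMC 1 or total_SMC 2, at an adjusted p of up to 0.111. Tbx5 was at 540 to 930 over the 9 libraries with no call. Tbx18, a factor of the epicardium and of mural cells, was at 125, 134 and 88 in BSMC, 319, 191 and 232 in PASMC, and 87, 139 and 95 in total_SMC. The PASMC libraries stood above all others. Tbx18 was 2.14 times as high in PASMC as in BSMC (1.08 ± 0.28, adjusted p = 0.0176), lost without BSMC 3 or PASMC 1 (adjusted p up to 0.0908). PASMC was 2.31 times as high as total_SMC (-1.20 ± 0.28, adjusted p = 0.0111), lost without PASMC 1, total_SMC 1 or total_SMC 3 (up to 0.0589). Tbx1, the pharyngeal factor, was at 18 to 45 in BSMC and 42 to 104 in PASMC, which overlapped. Its call (1.31 ± 0.43, adjusted p = 0.0499) held among the leave-one-out fits only without BSMC 1 or PASMC 1, with an adjusted p of up to 0.148 in the others.

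Pericyte markers were measured beside Tbx18, Foxs1 and Foxd1. The 8 markers summed to 1248 to 1551 CPM in BSMC, 1785 to 1916 in PASMC and 1595 to 1687 in total_SMC, with PASMC above all others, and none was at 0 in all libraries. Of these 8, 4 were higher and 2 lower in PASMC than in BSMC, 2 higher and 3 lower in total_SMC than in PASMC, and 3 higher and 5 lower in total_SMC than in BSMC. The part of pericyte RNA in the levels of Tbx18, Foxs1 and Foxd1 was not tested.

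Genes that work with T-box factors moved in both directions. Of 13 tested, 4 were higher and 2 lower in PASMC than in BSMC, 2 higher and 3 lower in total_SMC than in PASMC, and 0 higher and 3 lower in total_SMC than in BSMC. At an unadjusted p under 0.05 in limma, 2 were higher there. The shares of all genes called in the 3 comparisons were 22.1, 16.2 and 41.9% in that order. Gata6, a zinc finger factor of lung and heart mesoderm, was at 1223 in total_SMC against 1849 in PASMC and 1728 in BSMC by the means (-0.60, adjusted p = 0.00574, and -0.50, adjusted p = 0.00755). On implied reads without scaling, neither Gata6 call passed (-0.64, adjusted p = 0.0736, and -0.32, adjusted p = 0.238). Hand2, a factor of heart and limb, was at a mean of 30.7 in BSMC and at 1.67 and 1.33 in PASMC and total_SMC. It entered the test through BSMC, the group where it is high, so it had to differ there. Nkx2-3, also called in both comparisons with BSMC, could be tested in only 6 of the 9 fits that left out a library. The counts above include both genes.

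Hox genes were expressed from the front part of the clusters. Paralogue numbers 1 to 7 held 99.1 to 99.9% of the summed level of the 20 Hox members, and the Hoxa and Hoxb clusters nearly all of it, Hoxa 41.8 to 51.3% and Hoxb 46.6 to 57.4%. Per kilobase of exon, the genes of paralogue number 5 summed to a mean level of 484, ahead of number 6 at 238 and number 7 at 171. Hoxa5 and Hoxb5 each stood at 241 per kilobase and Hoxb6 at 212. The sum dropped to 4.05 for number 8, 1.40 for number 9 and 0.782 for number 10.

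The Hox sum was 351 to 500 CPM in BSMC, 268 to 366 in PASMC and 251 to 275 in total_SMC. Of 16 Hox members tested, 0 were higher in any comparison, also at an unadjusted p under 0.05 in limma. Of all genes, 13.2% were higher in PASMC than in BSMC, 9.39% in total_SMC than in PASMC and 23.7% in total_SMC than in BSMC. In total_SMC, 7 of the Hox members were lower than in BSMC, or 43.8% of those tested, beside 18.2% of all genes called lower. Against PASMC, 1 was lower, and 1 was lower in PASMC than in BSMC. Each of these is 6.25% of those tested, beside 6.83% and 8.88% of all genes called lower. The 7 were Hoxa3, Hoxa4, Hoxb2, Hoxb3, Hoxb4, Hoxb5 and Hoxb6.

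Hoxb6 was at 606, 400 and 656 in BSMC, 352, 467 and 441 in PASMC, and 287, 276 and 266 in total_SMC. Its total_SMC libraries lay below all others, and BSMC was 2.00 times as high (-0.97 ± 0.20, adjusted p = 0.00296). Hoxb5 was at 776, 670 and 945 in BSMC and 564, 502 and 539 in total_SMC (-0.56 ± 0.16, adjusted p = 0.0146, 0.0539 without total_SMC 2). Hoxb4 was at 228, 139 and 232 in BSMC, 76, 143 and 104 in PASMC, and 82, 108 and 69 in total_SMC (-1.19 ± 0.31 for total_SMC against BSMC, adjusted p = 0.00969). The difference of Hoxb4 between PASMC and BSMC, -0.89 ± 0.31, was not called (adjusted p = 0.0558).

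Hoxb2 was at 186 to 236 in BSMC, 149 to 200 in PASMC and 110 to 133 in total_SMC (-0.85 ± 0.21 for total_SMC against BSMC, adjusted p = 0.00733). Hoxb3 was low, at 38 to 53 in BSMC and 13 to 25 in total_SMC (-1.27 ± 0.39, adjusted p = 0.0223), and was lost without BSMC 3 or total_SMC 3 (adjusted p up to 0.0996). Hoxb7 was at 104 to 164 over the 9 libraries, with no call.

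In the Hoxa cluster, Hoxa4 was at 276, 206 and 331 in BSMC, 137, 130 and 188 in PASMC, and 148, 120 and 92 in total_SMC. Every BSMC library lay above all others. Its level fell by 1.17 on the log2 scale from BSMC to total_SMC (SE 0.26, adjusted p = 0.00421). The difference of PASMC from BSMC, -0.83 ± 0.26, had an adjusted p of 0.0410 and was lost without BSMC 1, BSMC 3, PASMC 1, PASMC 2 or total_SMC 2 (up to 0.137). Hoxa3 was at 359 to 386 in BSMC, 211 to 383 in PASMC and 163 to 195 in total_SMC. The total_SMC level differed from BSMC by -1.07 ± 0.22 (adjusted p = 0.00289) and from PASMC by -0.78 ± 0.22 (adjusted p = 0.0321), the latter lost without PASMC 2, PASMC 3 or any one total_SMC library (adjusted p up to 0.137). The gene model of Hoxa3 spans those of Hoxa4, Hoxa5 and Hoxa6 on the same strand, and whether such shared reads were counted for one gene, both or neither is not given in the sources used here. Hoxa5, at 316 to 574 over the 9 libraries, was not called, and neither were Hoxa2, Hoxa6 and Hoxa7. Hoxc4, Hoxc5 and Hoxd8 passed the filter with no value above 23.

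**Figure D3:**
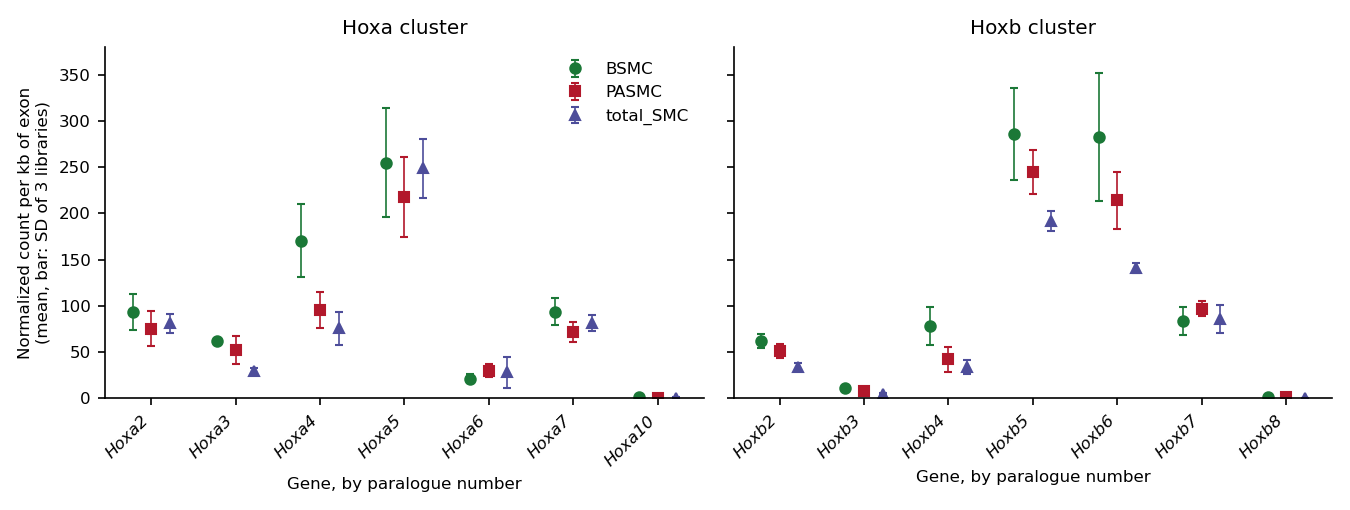
Mean normalized count per kilobase of exon of Hoxa and Hoxb genes from paralogue number 2 on in the 3 groups, with the SD of 3 libraries as a bar. Levels peak at Hoxa5 and Hoxb5 and are near 0 at Hoxb8 and Hoxa10. The total_SMC points lie below the BSMC points from Hoxb2 to Hoxb6.

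Non-coding genes beside members were measured too. Of the 9 tested, in all families, 0 were higher in PASMC than in BSMC (1 at an unadjusted p under 0.05 in limma) and 1 lower, 1 was higher and 1 lower in total_SMC than in PASMC, and 1 higher and 3 lower in total_SMC than in BSMC. Hotairm1, a non-coding gene of the Hoxa cluster, was at 255, 152 and 261 in BSMC, 111, 110 and 136 in PASMC, and 89, 89 and 75 in total_SMC. BSMC exceeded total_SMC in Hotairm1 (-1.35, adjusted p = 0.00154). Its lower level in PASMC (-0.86, adjusted p = 0.0320) was lost without BSMC 1, BSMC 3, PASMC 1 or PASMC 2, at an adjusted p of up to 0.107. Hoxb3os, antisense to Hoxb2 and Hoxb3, was at 74 to 91 in BSMC, 65 to 70 in PASMC and 32 to 39 in total_SMC (-1.22 for total_SMC against BSMC, adjusted p = 0.00367). Its difference from PASMC (-0.92, adjusted p = 0.0340) was lost without any one PASMC or total_SMC library, at an adjusted p of up to 0.137. Without strand, its reads and those of Hoxb2 and Hoxb3 cannot be told apart where the genes overlap. Hoxaas2, Hoxaas3 and Hoxb5os were called in no comparison. Hoxaas2 was at 100 to 131 in BSMC, 117 to 125 in PASMC and 61 to 92 in total_SMC. Hoxaas3 was at 35 to 95, 40 to 53 and 35 to 41, and Hoxb5os at 73 to 197, 86 to 88 and 80 to 108 in the same order.

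Cofactors of the TALE class, which bind DNA together with Hox proteins, were measured as well. Of 10 tested, 1 was higher in PASMC than in BSMC, 0 were called between total_SMC and PASMC (1 higher and 2 lower at an unadjusted p under 0.05 in limma), and 2 were higher and 2 lower in total_SMC than in BSMC. Pknox2 was at means of 495, 848 and 1199 in BSMC, PASMC and total_SMC (1.32 for total_SMC against BSMC, adjusted p = 4.71e-04). Pbx2 was at 209, 143 and 98.0 (-1.09, adjusted p = 0.00470). Meis1 was not called. Of 17 Polycomb and trithorax genes, which keep Hox genes silent or active, 2 were higher in PASMC than in BSMC, 0 were called between total_SMC and PASMC (2 lower at an unadjusted p under 0.05 in limma), and 3 were higher and 3 lower in total_SMC than in BSMC. Among them Ezh1, a histone methyltransferase of resting cells, was higher in total_SMC than in BSMC (1.00, adjusted p = 0.00193), as was Kdm6a, a histone demethylase (1.64, adjusted p = 0.00482). The 3 lower in total_SMC were Kdm6b, Kmt2a and Ring1, and none of these calls held in every leave-one-out fit. Their adjusted p in limma reached 0.131, 0.167 and 0.0730 in that order. For both lists, the shares of all genes called were 22.1, 16.2 and 41.9% in the same order of comparisons.

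Sox genes were called in both directions. Of 12 tested, 2 were higher and 2 lower in PASMC than in BSMC, 2 higher and 1 lower in total_SMC than in PASMC, and 3 higher and 2 lower in total_SMC than in BSMC. The percent of Sox members called was 33.3 in PASMC against BSMC and 41.7 in total_SMC against BSMC, beside 22.1 and 41.9 of all genes. The 3 of 12 called in total_SMC against PASMC stand beside 16.2% of all genes. The SoxF genes Sox7, Sox17 and Sox18 encode factors of endothelium. Sox7 was at 428, 501 and 359 in BSMC, 321, 445 and 324 in PASMC, and 755, 881 and 784 in total_SMC. All total_SMC libraries stood above the other 6. Sox7 was 2.22 times as high in total_SMC as in PASMC (1.16 ± 0.18, adjusted p = 0.00102) and 1.88 times as high as in BSMC (0.92 ± 0.18, adjusted p = 0.00214).

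Sox17 was at 334, 181 and 240 in BSMC, 107, 161 and 123 in PASMC, and 285, 343 and 304 in total_SMC. PASMC lay below all other libraries. Sox17 was 2.38 times as high in total_SMC as in PASMC (1.26 ± 0.25, adjusted p = 0.00415). BSMC was 1.93 times as high as PASMC (-0.92 ± 0.25, adjusted p = 0.0219), a call lost without BSMC 1, PASMC 1 or PASMC 3, at an adjusted p of up to 0.0945. Sox18 was at 806, 571 and 939 in BSMC, 352, 418 and 466 in PASMC, and 540, 759 and 521 in total_SMC, again lowest in PASMC. BSMC was 1.87 times as high as PASMC (-0.88 ± 0.21, adjusted p = 0.0139), lost without BSMC 1 or PASMC 1 (adjusted p up to 0.0658).

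The sum of endothelial markers was also lowest in PASMC. The 12 markers summed to 1164 to 1324 CPM in BSMC, 885 to 1130 in PASMC and 1543 to 1893 in total_SMC, and none was at 0 in all libraries. Of the 12, 4 were lower in PASMC than in BSMC, 8 higher in total_SMC than in PASMC and 3 higher in total_SMC than in BSMC. Beside these stand 8.88, 9.39 and 23.7% of all genes called in the same directions. The other way, 0 were called, and 1 was higher in PASMC than in BSMC at an unadjusted p under 0.05 in limma. Cdh5, the cadherin of endothelial junctions, was at means of 346, 184 and 451 in BSMC, PASMC and total_SMC. Pecam1, a surface marker of endothelium, was at 2104, 1639 and 2187. The part of endothelial RNA in the levels of the SoxF genes was not tested.

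**Figure D4:**
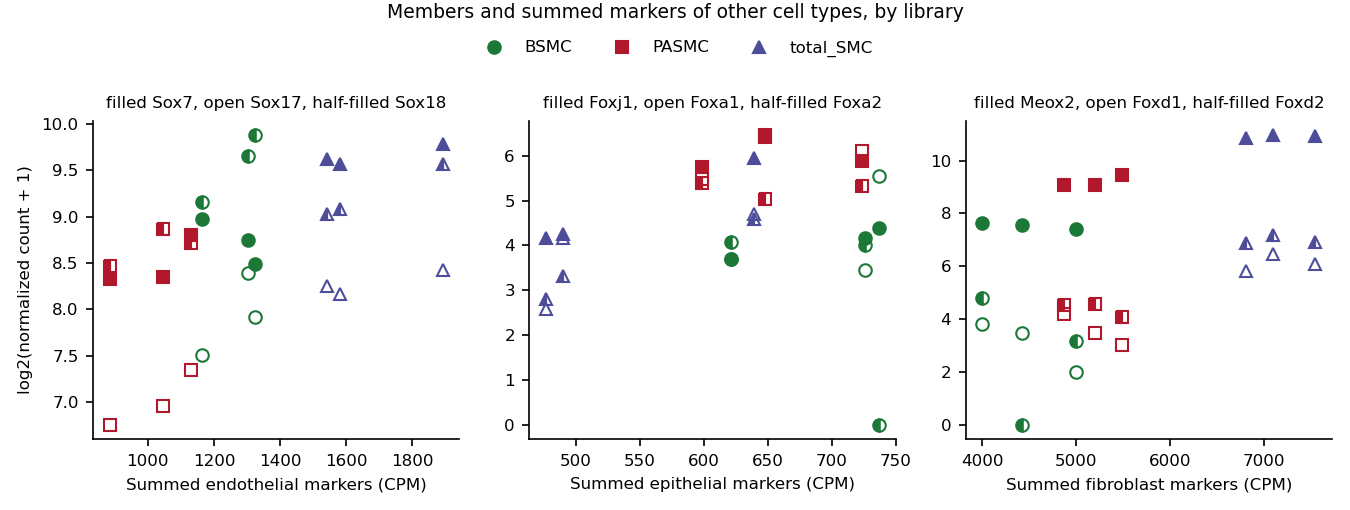
Level of single members (y axis, log2 of the normalized count plus 1) against the summed level of a marker list (x axis, CPM) in each of the 9 libraries, coloured by group. Endothelial markers are set against Sox7, Sox17 and Sox18, epithelial markers against Foxj1, Foxa1 and Foxa2, and fibroblast markers against Meox2, Foxd1 and Foxd2. The 3 total_SMC libraries are highest on both axes in the fibroblast panel.

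The SoxE genes Sox8 and Sox9, which act in cartilage and neural crest, were lowest in BSMC. Sox9, also a factor of the airway's cartilage and epithelial tips, was at 165, 181 and 124 in BSMC, 251, 399 and 590 in PASMC, and 591, 513 and 486 in total_SMC. Every BSMC library lay below all others. Sox9 was 2.64 times as high in PASMC as in BSMC (1.33 ± 0.28, adjusted p = 0.00592) and 3.38 times as high in total_SMC (1.76 ± 0.28, adjusted p = 4.82e-04). Sox8 was at 50, 53 and 43 in BSMC, 78, 160 and 223 in PASMC, and 97, 120 and 91 in total_SMC, with BSMC again below all others. Sox8 was 3.16 times as high in PASMC as in BSMC (1.52 ± 0.35, adjusted p = 0.0106). The rise in total_SMC over BSMC (1.06 ± 0.35, adjusted p = 0.0309) was lost without BSMC 1, BSMC 3 or any one total_SMC library, at an adjusted p of up to 0.104.

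Cartilage genes were measured beside them. The 8 chondrocyte markers summed to 111 to 167 CPM in BSMC, 45.2 to 106 in PASMC and 71.3 to 85.9 in total_SMC, and 4 of them passed the filter. Of these 4, 2 were higher and 1 lower in PASMC than in BSMC, 0 higher (also at an unadjusted p under 0.05 in limma) and 1 lower in total_SMC than in PASMC, and 1 higher and 1 lower in total_SMC than in BSMC. Most of the sum came from Cytl1, a secreted protein known from cartilage, at means of 1131 in BSMC, 573 in PASMC and 671 in total_SMC. Cytl1 was lower in PASMC than in BSMC (-1.03, adjusted p = 0.0120, lost without BSMC 1 at 0.0548). Its difference of total_SMC from BSMC (-0.74, adjusted p = 0.0305) was lost without BSMC 1, BSMC 3 or any one total_SMC library, at an adjusted p of up to 0.102. Col2a1, the collagen that defines cartilage, was at means of 0.333 in BSMC, 21.0 in PASMC and 5.67 in total_SMC. Matn1, a cartilage matrix protein, was at 2.67, 39.3 and 3.00. Col2a1 and Matn1 entered the test through PASMC, the group where they are high, so they had to differ, like Foxn1 above. The 2 higher calls in PASMC are theirs, and the 1 lower call in total_SMC than in PASMC is that of Matn1. These calls therefore carry no weight. The part of cartilage RNA in the levels of Sox8 and Sox9 was not tested.

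Sox6, a SoxD factor of muscle and cartilage, was at 410, 320 and 353 in BSMC, 423, 284 and 325 in PASMC, and 200, 166 and 210 in total_SMC. The total_SMC libraries lay below all others. BSMC was 1.88 times as high as total_SMC (-0.91 ± 0.20, adjusted p = 0.00385). The lower level than in PASMC (-0.83 ± 0.20, adjusted p = 0.0136) was lost without PASMC 1 or total_SMC 2, at an adjusted p of up to 0.0706. Its relatives Sox5, at 119 to 225, and Sox13, at 574 to 836, were called in no comparison. Sox6os, a short non-coding gene inside Sox6 on the opposite strand, was picked out with its values known. Its levels were 68, 31 and 51 in BSMC, 13, 18 and 14 in PASMC, and 8, 5 and 7 in total_SMC (-2.68 for total_SMC against BSMC, adjusted p = 7.42e-04). Without strand, its reads cannot be told apart from those of Sox6.

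Sox4, a SoxC factor of progenitor cells, was at 897 to 1529 over the 9 libraries and made up 23.3 to 32.3% of the summed Sox level, with no call. Sox12, of the same subgroup, was at 113, 219 and 304 in BSMC and 99, 114 and 108 in total_SMC, which overlapped. Its call (-0.87 ± 0.32, adjusted p = 0.0486) held among the leave-one-out fits only without BSMC 1, and the adjusted p reached 0.166 in the others. Sox11, the remaining gene of that subgroup, was at 48 to 59 in total_SMC and 13 to 36 in PASMC with no call (1.20 ± 0.40, adjusted p = 0.0628).

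Members that lie side by side did not all move together. Of the 83 members, 35 lay in 10 clusters in which each was within 1000 kb of the next. Foxf1, Foxc2 and Foxl1 lie within 46.3 kb on chromosome 8, with Foxc2 between the others. In total_SMC against PASMC the log2 differences along these 3 genes were 0.26 (not called), -1.01 (called) and 1.50 (called). Fendrr, a non-coding gene upstream of Foxf1 on the opposite strand, was at means of 279, 433 and 258 in BSMC, PASMC and total_SMC, with no call. Foxq1, Foxf2 and Foxc1, within 256 kb on chromosome 13, were each lower in total_SMC than in PASMC, by the values above. For Tbx2 and Tbx4 on chromosome 11, the difference of PASMC from BSMC was -0.23 and 0.30, with neither called. For Tbx3 and Tbx5 on chromosome 5, it was 0.90 (called) and 0.20 (not called).

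**Figure D5:**
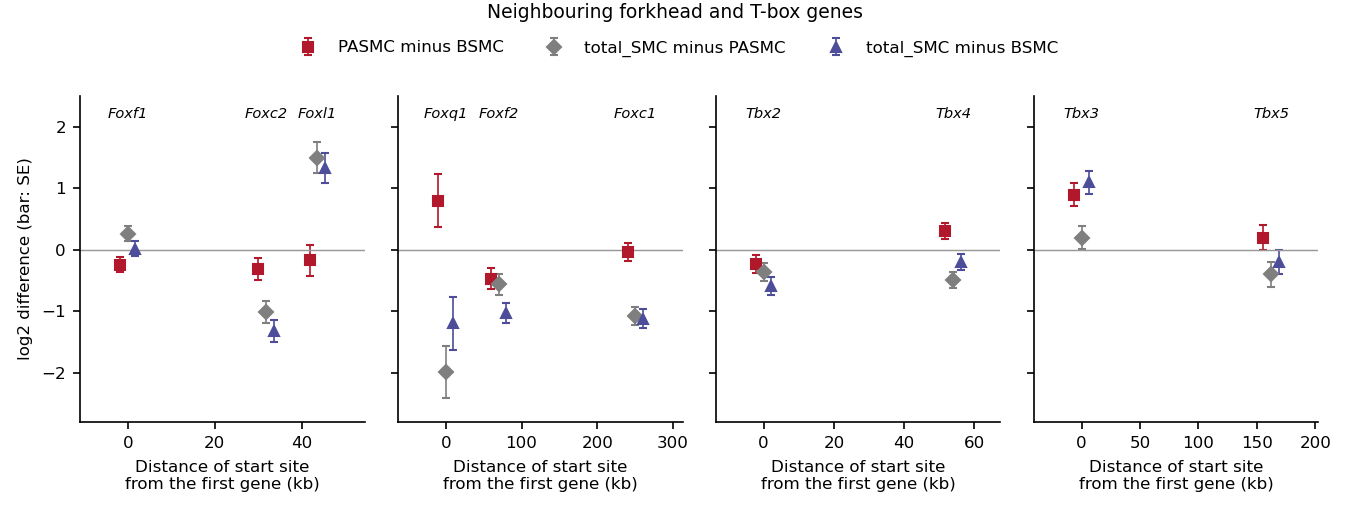
Log2 differences of neighbouring members in the 3 comparisons (y axis) against the distance of each start site from that of the first gene in its cluster (x axis, kb). In the cluster of Foxf1, Foxc2 and Foxl1, total_SMC minus PASMC is 0.26, -1.01 and 1.50 along the genes.

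Genes of signals that act upstream of these factors were higher in total_SMC in several cases. Of 17 genes of Hedgehog, Wnt, BMP and retinoid signalling, 2 were higher and 1 lower in PASMC than in BSMC, 4 higher and 0 lower in total_SMC than in PASMC (0 lower at an unadjusted p under 0.05 in limma), and 7 higher and 2 lower in total_SMC than in BSMC. The shares of all genes called in these comparisons were 22.1, 16.2 and 41.9%. Gli1 and Ptch1 are induced by Hedgehog signals. Gli1 was at means of 188, 267 and 553 in BSMC, PASMC and total_SMC (1.06 for total_SMC against PASMC, adjusted p = 0.00221). Ptch1 was at 564, 749 and 1893 (1.34, adjusted p = 0.00376). Aldh1a2, the enzyme that makes retinoic acid, was at 884, 790 and 1891 (1.26, adjusted p = 6.23e-05), and is also known from mesothelium. Gli2, a Hedgehog effector, was higher in PASMC than in BSMC (1.69, adjusted p = 1.29e-04).

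Other mesodermal factors were measured for comparison. Of 17 tested, 2 were higher and 2 lower in PASMC than in BSMC, 4 higher and 1 lower in total_SMC than in PASMC, and 6 higher and 2 lower in total_SMC than in BSMC. Twist2, a factor of dermal and other mesenchyme, was at means of 48.7, 51.7 and 187 in BSMC, PASMC and total_SMC (1.90 for total_SMC against PASMC, adjusted p = 0.00426).

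The 17 members that did not pass the filter were 4 Hox, 8 Fox, 1 Tbx and 4 Sox genes. Their highest value in any library was 31, for Sox2 in PASMC 3. They include Hoxa10, Hoxb8, Hoxd9 and Hoxd10 at the rear of the detected Hox range, and Foxp3 and Tbx21, which mark regulatory and type 1 helper T cells.

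Motifs were also counted over the promoter windows of all members with an entry. RefSeq entries were found for 52 of the 83 members, with 64 promoters. The forkhead core TGTTTA, searched on both strands as were all motifs, occurred in 12.5% of the members' windows of 250 bases and in 3952 of all 32851. The T-box core GGTGTG was in 14.1 and 16.3%, the homeodomain core TAATTA in 4.69 and 4.84%, the Sox core ACAATG in 7.81 and 10.7%, and the TATA box TATAAA in 14.1 and 12.4%. The CArG box of smooth muscle genes was in 0 of 64 member windows and in 1.47% of all. The members' windows were richer in G and C, at a median of 60.8% against 52.4%, and in CpG, at a median of 14 against 6 per window. These are counts of letters and say nothing of binding.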

How the data were processed

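Messenger RNA of 9 libraries, 3 per group, was measured by bulk RNA sequencing. The deposited table gives normalized counts that the authors rounded to whole numbers, 1 per gene and library, treated here as a score with no count model. Per the submitters' processing notes, Trimmomatic 0.39, STAR 2.7.11a, Picard 3.1.1, featureCounts 2.0.4 and DESeq2 1.36.0 were used with build mm39. How reads of overlapping genes were counted, and whether duplicates were removed, is not given in the sources used here. Depth came from the spacing of low values in each library.

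Levels were taken as log2(value + 1), so the log2 differences of low genes depend on the added 1, most of all where a library is at 0. That of Foxd2 in total_SMC against BSMC, with 1 BSMC library at 0, ran from 3.00 to 5.41 over the alternatives. Genes with at least 10 in 3 libraries were tested with limma 3.58.1 in R 4.3.3. The fit had 3 group means and empirical Bayes with trend and robust settings. Tests were two-sided, with Benjamini-Hochberg over all 15647 genes, called under 0.05. The ± values are standard errors of the fit, and folds are ratios of group means. By the rule for named genes, up to 8 called members per family, comparison and direction were taken by size of change where the group with more had a mean of 20 or above, with the 5 most abundant of each family, both Meox genes, every Hox gene tested, and up to 4 called genes per direction of each other list. Members named beyond that rule (such as Foxn1 and the low Sox and Fox genes), Hhip, Lgr6, Sox6os and marker genes were chosen after their values were seen, and of the other lists a few genes are given. The members and lists were chosen with earlier results of these data known. Whether each library is a separate animal is not stated in the labels, and the p-values then measure only the spread between these libraries. Levels per kilobase use exon lengths from GENCODE vM21, found for 96.7% of genes and 100.0% of members. Same-numbered libraries did not deviate together, at correlations of -0.12 to 0.14, and were not paired. The fit was tested on simulated data. Alternatives were other pseudocounts, filters, scalings and variance settings, a replicate block, and leaving out each library. Python 3.11.15 with numpy 2.4.6, pandas 2.3.3 and matplotlib 3.10.9 did the rest. Results for a few genes are not reported here.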

Additional observations from a re-analysis of the deposited data

How the results depend on the processing

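Of the 62 calls of members, 34 held in each of the 20 alternatives in which they could be computed, 36 held whichever library was left out, and 0 reversed. By comparison, 4 of 14 held throughout for PASMC against BSMC, 10 of 18 for total_SMC against PASMC and 20 of 30 for total_SMC against BSMC. These counts of held calls include those of Foxn1 in total_SMC against PASMC and against BSMC. They could be computed in only 16 of the 20 alternatives, and in none that left out a total_SMC library. Foxn1 had to differ, for the reason given above, so its calls say nothing of stability.

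With implied reads without scaling, which raised the median of all genes from 0.05 to 0.26 in PASMC against BSMC and to 0.23 in total_SMC against BSMC, 0 members were lower in PASMC than in BSMC, 7 lower in total_SMC than in PASMC and 12 lower in total_SMC than in BSMC. Calls lost there were those of Foxp2, Foxs1, Hoxa4, Sox17, Sox18 and Tbx1 in PASMC against BSMC, of Foxa1, Foxf2, Foxn3, Hoxa3 and Tbx4 in total_SMC against PASMC, and of Foxn2, Foxn3, Foxq1, Foxs1, Hoxb3, Hoxb5, Sox12 and Tbx2 in total_SMC against BSMC. Without the trend and robust settings, 2 were lower in PASMC than in BSMC and 7 lower in total_SMC than in PASMC. With only the 2 groups compared in the fit, 1 was lower in PASMC than in BSMC, and 10 were higher and 21 lower in total_SMC than in PASMC. With array weights the latter counts were 11 and 24. Of all genes, 28.7% were called in total_SMC against PASMC with only the 2 groups and 32.5% with array weights, where the fit above had 16.2%. The cause of these shifts was not tested.

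Leaving out 1 library gave 5 to 11 members higher and 0 to 10 lower in PASMC than in BSMC, 5 to 8 higher and 6 to 16 lower in total_SMC than in PASMC, and 7 to 13 higher and 15 to 24 lower in total_SMC than in BSMC. An arm with a library left out keeps 2 libraries. With the replicate number as a block, the counts were 9 and 3, 6 and 11, and 12 and 18 in the same order, although the numbers do not pair the libraries.

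Over all genes, quantile normalization gave 2017 higher and 2072 lower in PASMC than in BSMC, against 2062 and 1389, and 3217 and 4049 in total_SMC against BSMC, where the fit above had 3706 and 2847. Cyclic loess gave 2028 and 2030, and 3498 and 3529. Depth limits members with values under about 10, where a few reads decide the value. Foxf1, Tbx2 and Tbx4 reached 1 or more implied reads per exonic base, where removal of duplicates would lower a value.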
